A study of Mus musculus with 12 samples.

Results

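T cell lymphomas driven in mice by the ZMYM2-FGFR1 fusion kinase were profiled as whole tumour tissue and, in 1 case, as sorted tumour cells. This comparison holds 4 of the 12 arrays of the series: 3 unsorted T lymphomas, numbered 1 to 3, and 1 sorted T lymphoma, chosen by their labelled titles. It bears on the question, stated in the study's design text, of whether the sorting step itself altered gene expression. Genes of the other cell types of tumour tissue are described here by their level in the unsorted arrays and in the sorted one. All 4 lymphomas came from the third serial transplant, in which over 90% of the cells were GFP+Thy1+DP+, and the sorted sample was purified for these same cells. GFP marks the transduced tumour cells, Thy1 (CD90) marks T lineage cells, and DP+ means positive for both CD4 and CD8. The labels do not say how many mice gave each lymphoma, the tissue site, the age or sex of the hosts, or whether the sorted tumour was also hybridised unsorted. Sorting and the individual tumour therefore cannot be told apart in any difference given here. The reference group was DP thymocytes, 3 arrays of sorted Thy1+DP+ cells, each pooled from the thymuses of 3 normal Balb/c mice. A single array held the ZNF112 cell line, whose origin the labels do not give. The fit also took 2 arrays of normal stem cells (HSC, Lin-Sca-1+c-kit+ bone marrow cells of Balb/c mice) and 2 of leukemia stem cells (LSC, GFP+ Lin-Sca-1+c-kit+ cells of ZMYM2-FGFR1 mice). The 8 arrays without these stem cells are called the T cell side. RNA was amplified before hybridisation in all groups.

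A lymphoma grows inside lymphoid tissue and recruits a scaffold of host cells. Fibroblasts and pericytes lay down collagen and wrap vessels, endothelial cells line blood and lymph vessels, reticular and follicular dendritic cells secrete chemokines that guide lymphocytes, and macrophages clear dying cells and present antigen on MHC class II. Such cells can be few and still weigh on a bulk profile, because genes such as those for collagens and complement are transcribed at very high levels in them and hardly at all in T cells. In a bulk sample, fewer cells of a type and less RNA per cell cannot be told apart.

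The values below are log2 probe set intensities, given in the order lymphoma 1, 2 and 3 for the unsorted tumours, then the sorted tumour. A step of 1 is a 2-fold change in intensity. Each gene was read through 1 probe set, the one with the highest mean over all arrays, and 12797 of 18193 genes passed a filter on low values (log2 6.33 or higher in at least 2 of 12 arrays). Levels are not compared between genes. Array medians of the lymphomas lay between 99.5 and 109 on the linear scale, lowest in the sorted sample. The 3'/5' signal ratio of Actb, a sign of RNA quality, was 2.44 to 3.69 in the unsorted tumours and 3.39 in the sorted one. The ratio for Gapdh was 3.09 to 3.47 in the unsorted tumours and 4.56 in the sorted one, and its part in the differences below was not tested.

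The genes called, and those at least 2-fold outside the unsorted range, were mostly lower in the sorted lymphoma, although by any distance more genes lay above the range than below it on the reported scale (fewer after quantile normalization). The test was limma's moderated test over all 12 arrays with Benjamini-Hochberg adjustment over the 12797 genes. By it 76 genes fell in the sorted sample (0.594% of genes tested) and 8 rose (0.0625%). These counts depended on the arrays fitted: the 8 T cell side arrays gave 307 and 130, the 4 lymphoma arrays 0 and 0 (1281 genes at an unadjusted p under 0.05), and leaving out lymphoma 1, 2 or 3 gave 63 and 6, 195 and 53, or 37 and 3. At an unadjusted p under 0.05 the 12-array fit had 1278 genes (9.99%), the background for the list counts at that p. The background for list counts in the 8-array fit is 307 lower and 130 higher of 12797 genes. All 76 genes that fell lay at least 2-fold below the lowest unsorted tumour, and all 8 that rose lay at least 2-fold above the highest. With 1 sorted array the test assumes that this array varied as the other groups did, so the distance from the unsorted range is given beside it. Over all genes tested, 3439 lay below the range of the 3 unsorted tumours (26.9%), 4580 above it (35.8%) and 4778 inside it. This split moved with the scaling: quantile normalization gave 31.8% below and 29.5% above, and centring each array on its median gave 20.4% and 45.2%. At the stricter distance of 2-fold or more outside the range, 647 genes lay below (5.06%) and 205 above (1.60%). The median difference over all genes was 0.05, with quartiles of -0.26 and 0.40, and it was 0.16 when arrays were centred on their medians.

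**Figure D1:**
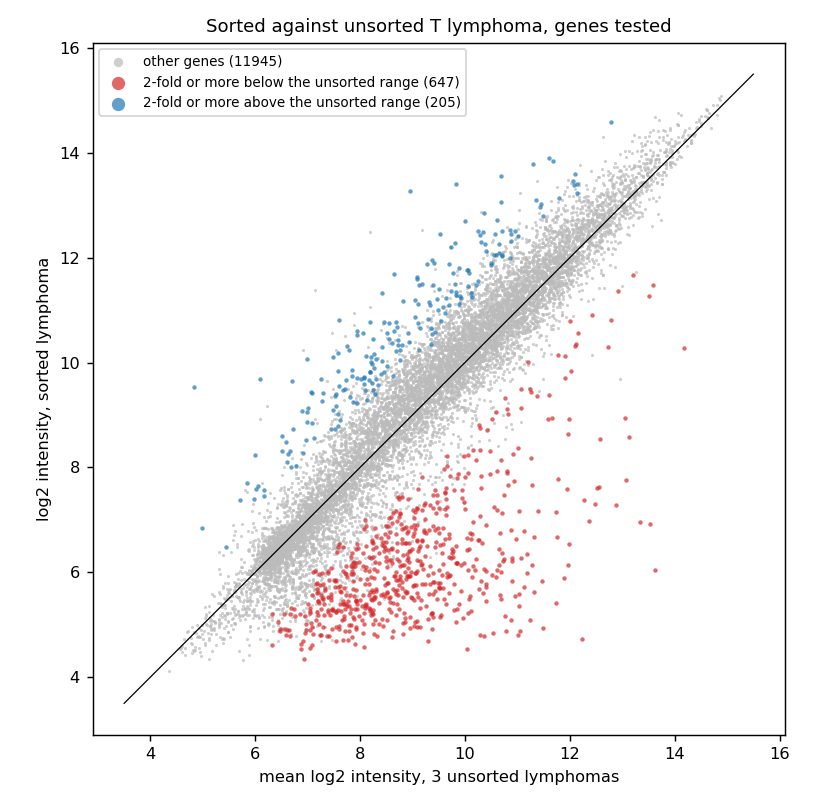
Each point is 1 of the 12797 genes tested, with the mean log2 intensity of the 3 unsorted lymphomas on the x axis and the log2 intensity of the sorted lymphoma on the y axis; the line marks equal values. The 647 genes at least 2-fold below the unsorted range reach far under the line toward the lowest intensities, and the 205 genes at least 2-fold above it stay closer to the line.

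Most genes lower in the sorted sample lay near the level of normal DP thymocytes there, though less often than genes in general. The 76 genes that fell had a median level of 10.18, 9.33 and 9.70 in the unsorted tumours and 5.79 in the sorted one, against 5.86 to 5.91 in the DP thymocyte arrays. Of them, 62 lay within 1 log2 unit of the DP mean in the sorted sample (81.6%), 12 lay at least 1 unit below it and 2 at least 1 unit above. Among the 647 genes at least 2-fold below the range, 476 (73.6%) lay within 1 unit of the DP mean, against 11213 (87.6%) of all genes tested. The sorted level of 408 of the 647 genes was under the filter level of 6.33. The probe sets bear on these counts too. Of the 647 genes, 279 had another probe set above the filter level, which lay at least 2-fold below the range in 131, below it by any distance in 259, and at least 2-fold above it in 1.

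Gene lists for 20 kinds of other cells set out the differences by cell type. These lists were drawn up with earlier results of these data known, so their counts are a description and not independent evidence. Of the 201 genes tested, 157 (78.1%) lay below the unsorted range, 94 (46.8%) at least 2-fold below, and 19 (9.45%) fell by the test. Over all genes tested these shares were 26.9%, 5.06% and 0.594%. Klf2 and Ccr7, both of which T cells also express, lay at least 2-fold above the range (0.995%, against 1.60% of all genes). The median level of the 201 genes was 8.76, 7.98 and 8.01 in the unsorted tumours, 6.30 in the sorted one and 6.28 to 6.34 in DP thymocytes. By these medians lymphoma 1 carried the most of this signal. Lymphomas 1, 2 and 3 had the lowest value of the unsorted tumours for 32, 89 and 80 of the 201 genes. Over all genes tested they were lowest for 25.7%, 40.4% and 33.9%. Of the 94 genes at least 2-fold below the range, 83 (88.3%) lay within 1 unit of the DP mean in the sorted sample, a share near the 87.6% of all genes.

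**Figure D2:**
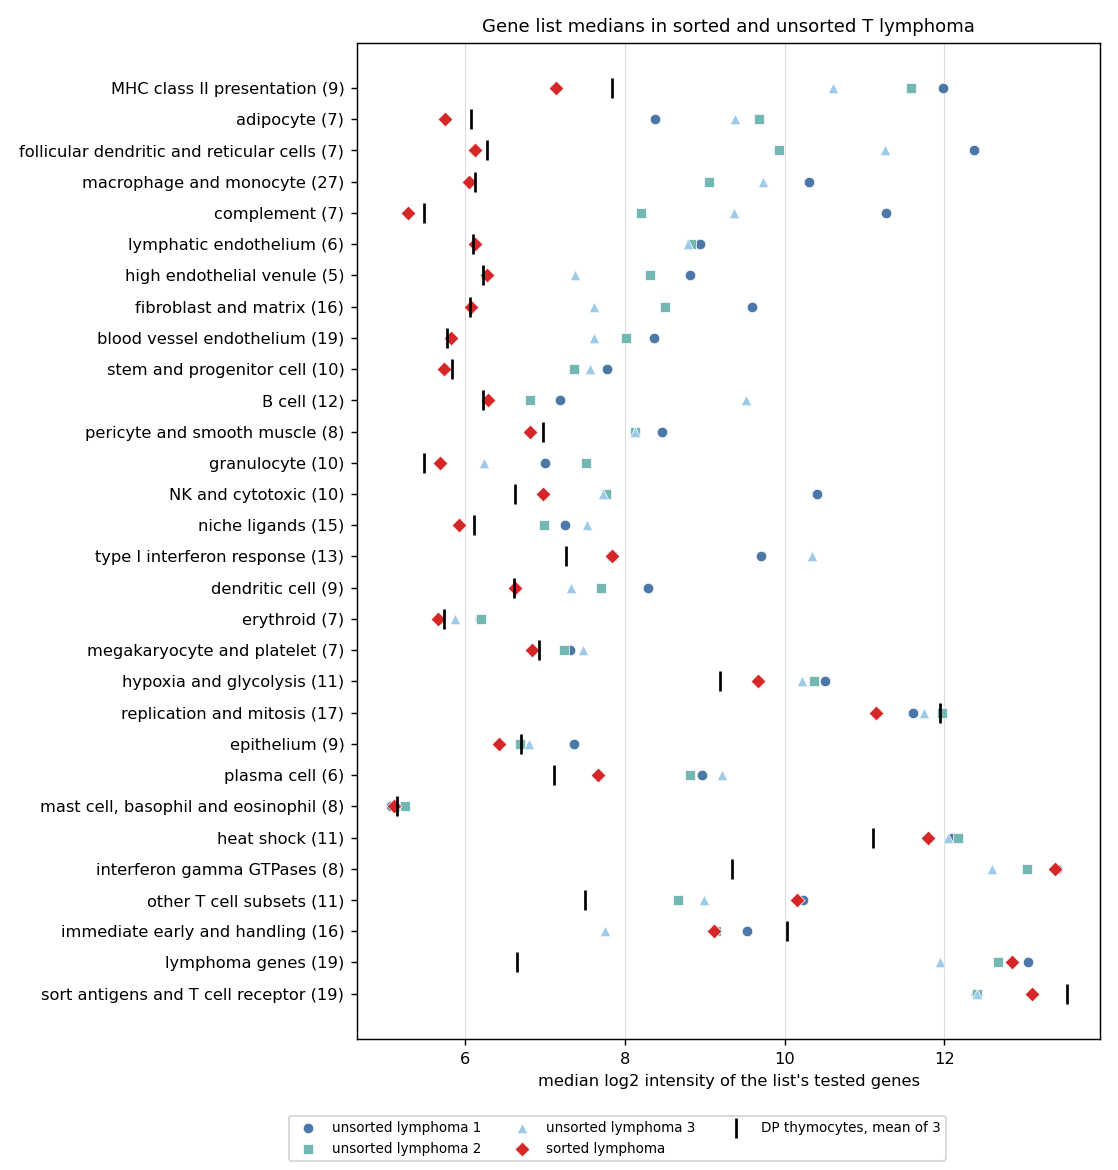
Each row is a gene list with its number of tested genes, and the x axis is the median log2 intensity of those genes in each unsorted lymphoma, in the sorted lymphoma and in DP thymocytes (mean of 3 arrays). For macrophage, vessel, fibroblast, adipocyte and MHC class II genes the sorted lymphoma sits to the left of all unsorted lymphomas, next to or below DP thymocytes, whereas the antigens used for sorting sit to the right of them.

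The antigens used for sorting and the T cell receptor genes were kept. Thy1 read 13.12, 13.03 and 13.00 in the unsorted tumours and 13.30 in the sorted one. Cd4 read 9.61, 10.75 and 9.88, then 11.01 when sorted, and Cd8a, a chain of the CD8 co-receptor, 12.67, 13.34 and 12.14, then 13.58. Cd8b1, the partner chain, read 11.34, 12.65 and 11.64, then 13.22. Each of these lay above the range of the unsorted tumours by 0.18 to 0.57, and the differences did not pass the test. Of the 19 tested genes of this list, 13 lay above the range and 1 below, with a median difference of 0.55 against 0.05 for all genes. Under quantile normalization 10 lay above. The defining markers of the labelled cells were thus present, with Cd4 below the DP thymocyte mean of 13.19. Cd3e, a signalling chain of the T cell receptor, read 10.59, 10.47 and 10.20, then 10.97. Cd28, a co-stimulatory receptor, was the member farthest above the range, at 8.71, 11.59 and 9.14, then 13.40, close to the DP mean of 12.94. Its adjusted p by limma was 0.362. Cd27, another co-stimulatory receptor, read 11.11, 11.55 and 11.44, then 12.45. Ptcra, which encodes the alpha chain of the pre-T cell receptor, went the other way, at 11.56, 12.41 and 12.41, then 10.36, and was the only one of 38 tumour-list genes at least 2-fold below the range.

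Genes that separate these lymphomas from normal DP thymocytes were as high in sorted cells as in tissue. This list was drawn up with earlier results of these samples known, so its height over DP thymocytes is not independent evidence. Il2ra, the alpha chain of the interleukin 2 receptor, read 13.69, 13.43 and 13.29 in the unsorted tumours and 13.73 in the sorted one, against a DP mean of 6.37. Notch1, a receptor that drives T lineage fate, read 13.75, 14.16 and 13.79, then 14.20. Dtx1, a Notch target, read 12.78, 13.66 and 12.19, then 13.80. Notch3 read 11.94, 11.72 and 10.76, then 11.70, inside the range. Of the 19 genes tested, 10 lay inside the range, 7 above and 2 below, with a median difference of 0.23; under quantile normalization 4 lay above and 5 below. The 2 below were Hes1, a Notch target, at 9.84, 7.41 and 8.59, then 7.18, and Casp1, an inflammatory caspase, at 12.12, 11.98 and 11.95, then 11.70. The farthest above was Ctla4, an inhibitory receptor, at 13.51, 13.16 and 11.24, then 14.31, followed by Nrarp, a Notch feedback gene, at 8.29, 9.86 and 7.42, then 10.47.

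In the 12-array fit fibroblast genes had the highest number of calls of the 30 lists, 6. In the fit of the 8 T cell side arrays the macrophage list had 15 of 27 genes and the fibroblast list 6 of 16. Over all genes that fit called 307 of 12797 lower. Dcn, which encodes the matrix proteoglycan decorin, read 14.19, 12.96 and 13.75 in the unsorted tumours and 6.05 in the sorted one, at the DP thymocyte level of 5.93. The sorted value was under the filter level, so the fall is given as a bound against that level, at least 158-fold (fitted log2 difference -7.58, SE 0.45, limma adjusted p = 0.00137), and it also passed without each unsorted tumour in turn. Col3a1, a fibrillar collagen, read 11.06, 10.85 and 9.19, then 4.79. Pdgfra, a growth factor receptor of fibroblasts, read 10.76, 9.15 and 10.44, then 6.63. Of 16 genes tested, 6 fell (Dcn, Col3a1, Pdgfra, Bgn, Fstl1 and Postn), 10 lay at least 2-fold below the range, 15 below it by any distance and 1 above. The median difference was -2.60. The gene above the range was Fbln1, a matrix gene, by 0.05, at 7.27, 7.36 and 7.37, then 7.41. Its other probe sets lay below the range, at 8.93, 6.54 and 7.34, then 5.90, and at 7.20, 5.80 and 5.96, then 5.48. The direction of Fbln1 is thus unsettled. Of the 6, the call for Pdgfra was lost without lymphoma 1 (adjusted p = 0.0616) and without lymphoma 3 (0.0976), and the calls of the other 5 held in all 3 such fits. Col1a1, a defining gene of fibroblasts, was near the array floor in every lymphoma on its chosen probe set, at 6.51, 6.33 and 6.30, then 6.09. A different probe set of the gene read 6.97, 8.14 and 6.58, then 4.94, and its relative Col1a2 read 12.53, 11.39 and 9.64, then 6.35.

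Pericyte and smooth muscle genes followed. Acta2, smooth muscle actin, read 10.56, 10.50 and 9.80 in the unsorted tumours and 7.07 in the sorted one, a fall of 9.28-fold (SE 0.38 on the log2 scale, limma adjusted p = 0.0133). Tagln, an actin-binding protein of smooth muscle, read 9.70, 9.41 and 9.27, then 7.34, and Mcam, an adhesion molecule of vessel walls, 8.09, 7.93 and 7.85, then 6.47. Both fell by the test, and both calls were lost without lymphoma 1 or without lymphoma 3. Mcam also read 7.79 in DP thymocytes and 8.69 in the cell line, so its sorted value lay 1.32 below the DP mean. The other 7 genes tested lay within 1 unit of their DP means in the sorted sample. Rgs5, a pericyte marker, read 8.84, 8.40 and 10.62, then 5.10, and its adjusted p by limma was 0.0503. All 8 genes tested lay below the range and 4 of them at least 2-fold, with a median difference of -1.42. Pdgfrb, the receptor that recruits pericytes, read 8.92, 8.33 and 8.41, then 7.82, and lay less than 2-fold below on its chosen probe set. Its other probe set read 10.29, 9.17 and 9.53, then 8.16, which is 1.01 below the range. There DP thymocytes read 5.34 and the cell line 8.19.

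**Figure D3:**
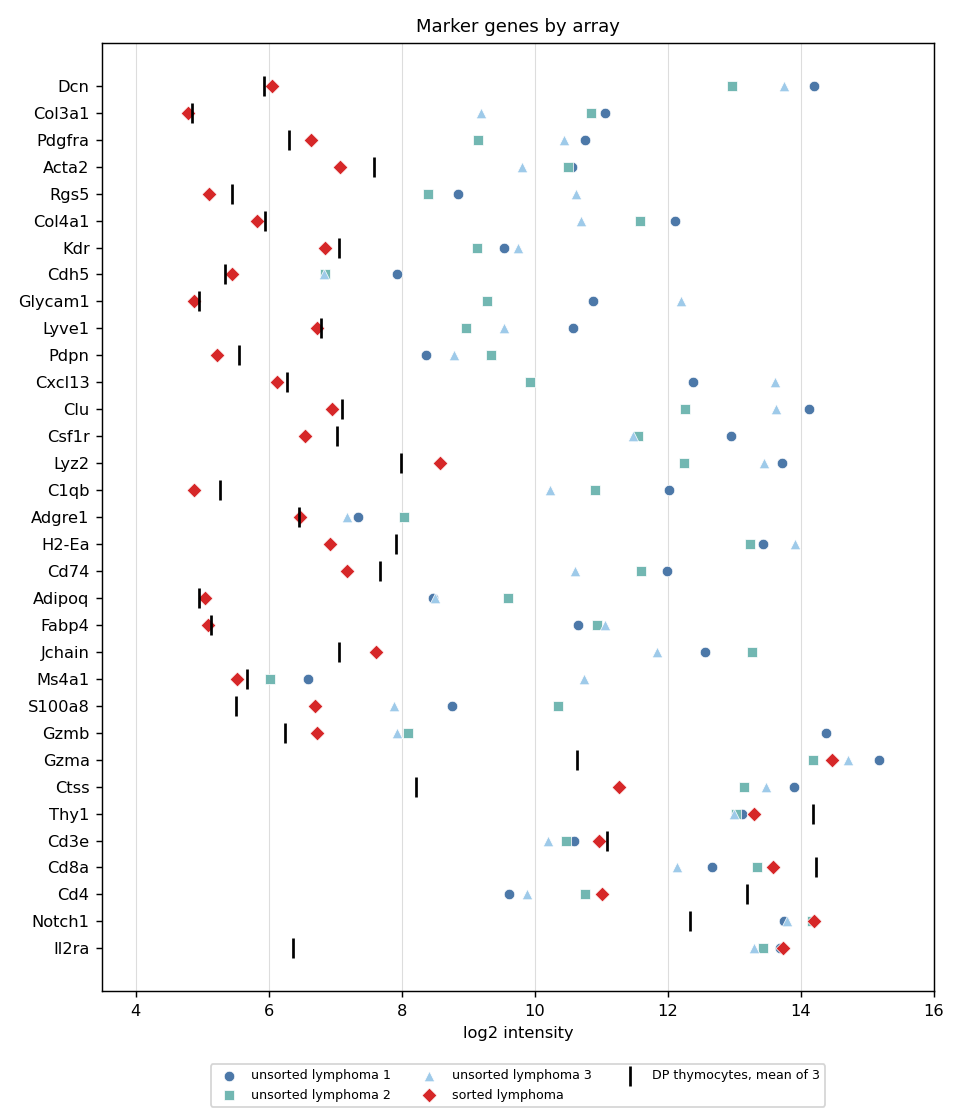
Log2 intensity (x axis) of marker genes (rows) in the 3 unsorted lymphomas, the sorted lymphoma and DP thymocytes (mean of 3 arrays). From Dcn to Cd74 and from Adipoq to Jchain the sorted lymphoma lies below all unsorted tumours and near DP thymocytes; Gzma lies inside the unsorted range; Thy1 to Il2ra lie at or above it.

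Genes of blood vessels, high endothelial venules and lymph vessels lay below the unsorted tumours in all but 1 case. Col4a1 and Col4a2, basement membrane collagens, both fell. Col4a1 read 12.10, 11.58 and 10.70, then 5.83, a fall of at least 35.1-fold against the filter level (limma adjusted p = 0.00375). Kdr, the main VEGF receptor of endothelium, read 9.54, 9.13 and 9.75, then 6.84, and Cdh5, the junction protein VE-cadherin, 7.93, 6.84 and 6.83, then 5.45. Neither passed the test, and neither sorted value overlapped the unsorted tumours. Of 19 blood vessel genes tested, 3 fell (Col4a1, Col4a2 and Fgd5), 12 lay at least 2-fold below the range and 18 by any distance, with a median of -1.90. The call for Fgd5 was lost without any 1 of the 3 unsorted tumours (adjusted p = 0.0592 to 0.121). Pecam1, a junction protein that some leukocytes also carry, was the exception inside the range, at 8.0, 7.38 and 8.29, then 7.66. High endothelial venules are the vessels through which lymphocytes enter lymph nodes. Their mucin gene Glycam1 read 10.87, 9.28 and 12.19, then 4.88, a fall of at least 21.9-fold against the filter level (limma adjusted p = 0.027); without lymphoma 1 its adjusted p was 0.0641. The addressin gene Madcam1 read 8.74, 8.96 and 7.20, then 5.65. All 5 tested genes of this list lay below the range, 4 of them at least 2-fold (2 under quantile normalization or centring). All 6 lymphatic genes lay at least 2-fold below, with a median of -2.86. Among them Pdpn, which encodes podoplanin, read 8.36, 9.34 and 8.79, then 5.22, and fell by the test, while Lyve1, a hyaluronan receptor of lymph vessels, read 10.57, 8.96 and 9.54, then 6.73 (limma adjusted p = 0.0503).

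Stromal chemokine and support genes of lymphoid tissue also lay below the range. Clu, which encodes clusterin and is high in follicular dendritic cells, read 14.12, 12.26 and 13.63, then 6.95, a fall of 83.3-fold (SE 0.67 on the log2 scale, limma adjusted p = 0.00948). Cxcl13, the chemokine that organises B cell follicles, read 12.37, 9.93 and 13.61, then 6.13, and its adjusted p was 0.071. Vcam1, an adhesion molecule of reticular cells, endothelium and macrophages, read 13.21, 11.62 and 11.87, then 4.72. Its sorted value was under the filter level, and its limma adjusted p was 0.249, and 0.00309 in the fit of the 8 T cell side arrays alone. Of the 7 reticular cell genes tested, 6 lay below the range, 4 at least 2-fold, and 2 fell (Clu and Pdpn). Tnfsf11, which encodes RANK ligand and is also expressed by T cells, stayed inside the range at 11.20, 9.30 and 8.95, then 10.33, above the DP mean of 6.44. Il33, an alarmin of stromal nuclei, is outside the lists and fell, at 11.21, 10.05 and 10.32, then 4.84 (limma adjusted p = 0.00211).

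Of the niche ligands, which the tumour cells could receive from other cells, 11 of 15 tested lay below the range, 4 at least 2-fold and 2 above. By limma 0 passed the test, 5 were at an unadjusted p under 0.05 and 1 fell in the fit of the 8 T cell side arrays. In that 8-array fit 307 of all 12797 genes fell. Cxcl12, the chemokine that binds CXCR4, read 10.89, 9.86 and 10.48, then 5.77. Gas6, a ligand of the TAM receptors, read 10.35, 8.16 and 7.52, then 5.19, and Kitl, the ligand of KIT, 8.45, 7.08 and 8.67, then 5.23. The interleukin genes were low throughout: Il7 read 6.93, 5.76 and 7.13, then 5.36, and Il15 7.19, 5.57 and 6.79, then 5.30. Dll4, a Notch ligand, read 7.21, 6.55 and 7.07, then 6.24. Tgfb1, which T cells make themselves, was just above the range, at 8.26, 8.32 and 8.24, then 8.51. Of the complement genes, 2 of the early classical pathway fell, the inhibitor Serping1 and the protease C1s1. Serping1 read 12.83, 10.15 and 11.47, then 4.94 (limma adjusted p = 0.0324), and C1s1 12.06, 9.58 and 10.66, then 5.17 (0.02). Both calls were lost without lymphoma 3 (0.0909 and 0.0595). Of 7 complement genes tested, 6 lay below the range. Cfp, which encodes properdin, read 9.68, 9.80 and 9.71, then 10.25, above the range, but its other probe set read 11.34, 9.27 and 10.14, then 6.59, below it, so its direction is unsettled.

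Adipocyte genes were present in all 3 unsorted tumours and near the DP thymocyte level in the sorted one. Adipoq, which encodes the fat cell hormone adiponectin, read 8.47, 9.59 and 8.50, then 5.05, and Fabp4, a lipid carrier of adipocytes, endothelium and macrophages, 10.65, 10.93 and 11.06, then 5.09. Their limma adjusted p-values were 0.0715 and 0.17. Car3, an adipocyte and muscle enzyme, differed most among the tumours, at 7.86, 11.75 and 10.05, then 5.40. All 7 genes tested lay below the range, 5 at least 2-fold, with a median difference of -3.80. By limma 0 were called over 12 arrays, with 5 at an unadjusted p under 0.05. In the fit of the 8 T cell side arrays 4 of the 7 fell, against 307 of all 12797 genes.

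Every macrophage gene tested was lower in the sorted sample. Of 27 genes, 27 lay below the unsorted range and 23 at least 2-fold below, with a median of -3.36 against 0.05 over all genes. Lyz2, which encodes lysozyme, read 13.71, 12.24 and 13.44, then 8.58, and was the 1 gene of the list called in the 12-array fit (log2 difference -4.55, SE 0.72, adjusted p = 0.0377). That call was lost without lymphoma 1 or lymphoma 3. Csf1r, the receptor for the macrophage growth factor, read 12.95, 11.55 and 11.47, then 6.54, with a limma adjusted p of 0.0709. C1qb, part of the complement starter C1q that macrophages secrete, read 12.02, 10.90 and 10.23, then 4.88 (0.323), and C1qc 12.21, 10.46 and 10.39, then 4.80 (0.27). In the fit of the 8 T cell side arrays, which leaves out the stem cell arrays, 15 of the 27 fell, against 307 of all 12797 genes. Apoe, a lipid carrier of macrophages, is outside the list and fell 48.3-fold, from 13.12, 12.90 and 12.65 to 7.29 (SE 0.61 on the log2 scale, adjusted p = 0.00948). The protease gene Ctss, chosen after its values were seen, was only partly lower, at 13.90, 13.14 and 13.48, then 11.27, above the DP mean of 8.22 and the cell line's 9.77. Cd68, a lysosomal marker, read 11.04, 9.60 and 10.28, then 7.60, and Adgre1, the F4/80 antigen, 7.34, 8.04 and 7.18, then 6.47.

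MHC class II genes had a median difference of -4.23 over 9 genes tested, with 7 below the range, 6 at least 2-fold, and 3 that fell. H2-Ea read 13.43, 13.23 and 13.91, then 6.92, a fall of 97.2-fold (SE 1.02 on the log2 scale, limma adjusted p = 0.0337). H2-Eb1 read 12.44, 12.33 and 12.35, then 6.98, and H2-Ab1 11.98, 11.58 and 11.61, then 7.14. All 3 calls were lost without lymphoma 1 or without lymphoma 3. Cd74, the invariant chain, read 11.98, 11.59 and 10.61, then 7.17 (0.245), and H2-Aa 12.03, 12.08 and 12.72, then 7.38 (0.0833). The peptide-loading gene H2-DMa behaved otherwise, at 10.47, 10.02 and 9.66, then 10.66, above the range and above the DP mean of 8.78. H2-Oa, which encodes a chain of its regulator, stayed inside the range at 9.69, 9.47 and 10.29, then 9.77. The dendritic cell list moved less as a whole, with 6 of 9 below the range, 3 at least 2-fold, 1 above and a median of -0.67. Its integrin Itgax read 8.29, 8.0 and 7.30, then 5.69. Zbtb46 and Siglech, which define conventional and plasmacytoid dendritic cells, were near the filter level in all 4 lymphomas, between 6.02 and 7.08.

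Lymphocyte lists differed in level among the unsorted tumours. B cell genes were highest in lymphoma 3 for 11 of 12 genes tested. Ms4a1, which encodes CD20, read 6.59, 6.02 and 10.74, then 5.53, and Cd79b, part of the B cell receptor, 7.23, 6.52 and 10.93, then 6.16. So the sorted value was close to lymphomas 1 and 2 and far from lymphoma 3. Of the 12, 10 lay below the range, 3 at least 2-fold and 0 fell by limma, with 1 at an unadjusted p under 0.05, near the 9.99% of all genes. Ighm, the heavy chain of IgM, read 13.15, 13.54 and 14.07, then 11.47, below a DP mean of 13.96, on 1 of 11 probe sets of the gene, one whose name marks sequence shared between transcripts. The other Ighm probe sets differed. One read 11.48, 11.92 and 12.83, then 10.10, also below its DP mean of 12.75. Another was highest in lymphoma 2, at 7.60, 10.89 and 9.90, then 5.84, near its DP mean of 5.93. Jchain, which joins secreted antibody chains, was by contrast high in all unsorted tumours, at 12.56, 13.27 and 11.83, then 7.62 (limma adjusted p = 0.0898). Mzb1, a plasma cell chaperone partner, read 10.16, 10.03 and 10.67, then 8.34. The other 4 plasma cell genes tested lay inside the range on their chosen probe sets. For Sdc1, a defining marker of this list, the probe sets differed. The chosen one read 6.98, 7.06 and 7.12, then 6.98, and another inside the range 6.54, 6.50 and 6.45, then 6.45. Below the range lay those at 7.46, 7.12 and 6.78, then 6.13, and at 5.68, 5.20 and 5.39, then 4.22.

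Cytotoxic genes were highest in lymphoma 1 for 9 of 10 genes tested. Gzmb, which encodes granzyme B, read 14.38, 8.10 and 7.93, then 6.72, and Ifng, interferon gamma, 13.37, 9.34 and 8.30, then 6.55. Nkg7, a granule membrane protein, read 13.10, 9.81 and 9.39, then 8.54. The cell line read 13.28 for Gzmb, 5.74 for Ifng and 7.61 for Nkg7. The spread among the unsorted tumours exceeded the distance of the sorted one from the nearest of them, and 0 of the 10 passed limma's test, with 1 at an unadjusted p under 0.05, near the 9.99% of all genes. Gzma, granzyme A, was not lost, at 15.18, 14.18 and 14.70, then 14.47, and the cell line read 15.03. Of other T cell subset genes, Cd40lg read 6.68, 6.86 and 6.77, then 6.74. Il7r, the interleukin 7 receptor, lay below the range at 13.16, 10.98 and 13.10, then 10.15, and S1pr1, the receptor for egress from tissue, at 8.29, 6.72 and 7.43, then 6.08. In this list 5 of 11 genes lay above the range and 3 below.

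Granulocyte genes were highest in lymphoma 2 for 9 of 10 genes tested, though by little for some near the filter level, such as Elane at 6.38, 6.43 and 6.18. For this list and the B cell and cytotoxic lists, the share over all genes highest in that tumour was not counted. S100a8, a calcium-binding protein of neutrophils, read 8.76, 10.35 and 7.88, then 6.69, and S100a9, its partner, 7.32, 9.21 and 6.37, then 5.92. All 10 lay below the range and 3 at least 2-fold, with a median of -1.29 and 0 calls by limma, at either the adjusted threshold or an unadjusted p under 0.05. Several other lists held genes with little signal to lose. The mast cell list stayed near the array floor in tissue and sorted cells, with Cpa3 at 6.27, 5.84 and 6.31, then 5.59, and a median difference of -0.02 (0.09 with arrays centred on their medians). Of the erythroid genes, Alas2, the haem synthesis enzyme, was present in lymphoma 1 only, at 9.14, 6.16 and 5.49, then 5.16. Hba-a1, an alpha globin gene, read 6.19 to 6.33 in tissue and 6.24 when sorted. Of the platelet genes, Pf4 read 8.55, 9.41 and 9.30, then 6.61, and Gp9 6.91, 6.78 and 6.80, then 6.84. Among epithelial genes, Epcam, an adhesion molecule, stayed high at 12.42, 10.25 and 12, then 12.07, and 11.28 in the cell line, whereas Krt8, a keratin, read 8.12, 6.23 and 5.77, then 5.70. Genes of stem and progenitor cells lay below the range in 8 of 10 cases, 5 at least 2-fold, with a median difference of -1.76. By the test 1 fell, Fgd5, which is also in the blood vessel list. Kit, a stem and mast cell receptor, read 11.17, 8.84 and 8.47, then 6.75 (a different probe set 6.79, 6.53 and 6.59, then 6.6), and Cd34, which endothelium also expresses, 8.89, 7.98 and 9.34, then 5.30.

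The sorted lymphoma resembled unsorted lymphoma 2 more than the other unsorted tumours. Across the 12797 genes tested, which are not independent replicates and share the normalization, the sorted array correlated at 0.943 with lymphoma 2, 0.871 with lymphoma 1 and 0.880 with lymphoma 3. The correlation with the DP thymocyte arrays was 0.919 to 0.922. The unsorted tumours correlated at 0.940 to 0.946 with each other. Against lymphoma 2 alone, 809 genes were at least 2-fold lower in the sorted sample and 494 higher. Against lymphoma 1 these counts were 1495 and 716, and against lymphoma 3 they were 1377 and 1646. Lymphoma 2 was the lowest unsorted tumour for 443 (68.5%) of the 647 genes at least 2-fold below the range and for 40.4% of all genes.

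Some genes put the sorted tumour and lymphoma 2 on one side and the other unsorted tumours on the other. With a margin of at least 4-fold, 26 genes were high in the sorted sample and lymphoma 2 only, and 48 were low in both only. For lymphoma 1 the counts were 1 and 1, and for lymphoma 3 they were 0 and 5. The genes named here were chosen after their values were seen. Dsp, which encodes the junction protein desmoplakin, read 7.28, 12.48 and 4.82 in the unsorted tumours and 12.48 in the sorted one, against 5.19 in DP thymocytes. Ly6k, a surface antigen normally found in germ cells, read 7.52, 12.83 and 7.24, then 12.53. Ddx43, a helicase of the germ line, read 5.56, 10.40 and 5.46, then 11.39. Trbv13-2, a variable segment of the T cell receptor beta chain, read 5.75, 10.50 and 6.15, then 10.56; the mixed DP thymocytes read 10.52. Tox3, a chromatin factor, read 4.97, 8.53 and 4.79, then 9.69, and Cacna1c, a calcium channel, 5.99, 9.47 and 5.26, then 10.24. Cd28 and Ephb6 were in the same group of 26. On the low side, Pde7a, a cAMP phosphodiesterase, read 12.35, 8.51 and 11.24, then 6.37, Sfmbt2 9.18, 6.27 and 9.82, then 5.53, and Adamts6 9.44, 5.21 and 7.77, then 4.71, all 3 well below their DP levels of 9.80, 8.88 and 9.16. The 48 also held genes of the other-cell lists whose sorted values were near the DP level, such as Cxcl13 and Marco. Marco, of the macrophage list, read 11.85, 7.06 and 9.08, then 6.29, against 6.13 in DP thymocytes. The part of other cells in these counts and in the correlations was not tested. Differences between the sorted and unsorted groups in all these genes cannot be told apart from differences between individual tumours.

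**Figure D4:**
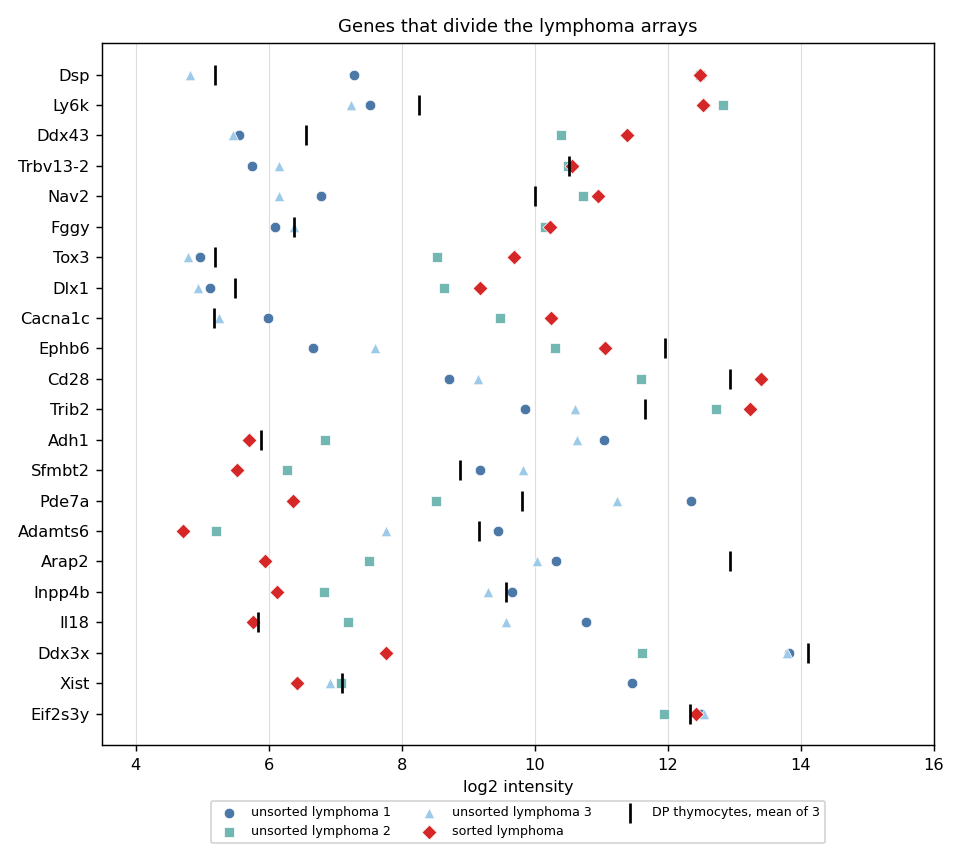
Log2 intensity (x axis) of genes chosen after their values were seen (rows) in the 3 unsorted lymphomas, the sorted lymphoma and DP thymocytes (mean of 3 arrays). From Dsp to Trib2 the sorted lymphoma and lymphoma 2 lie together above lymphomas 1 and 3, from Adh1 to Il18 they lie together below them, and Ddx3x is lowest in the sorted lymphoma, next lowest in lymphoma 2. Xist is high in lymphoma 1 and Eif2s3y lies at a like level in all 4.

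A smaller group of genes lay far below DP thymocytes in the sorted tumour. Of the 647 genes at least 2-fold below the unsorted range, 149 (23%) lay at least 1 unit below the DP mean, against 657 of all 12797 genes (5.13%). At least 3 units below the DP mean lay 47 of the 647, and the share over all genes at that distance was not counted. Ddx3x, an RNA helicase gene on the X chromosome, read 13.82, 11.61 and 13.79 in the unsorted tumours and 7.76 in the sorted one. DP thymocytes read 14.10 and the cell line 14.02. The fall was 39.9-fold (SE 0.81 on the log2 scale, limma adjusted p = 0.0333), and without lymphoma 1 or lymphoma 3 the adjusted p was 0.0668 or 0.0894. Its other probe sets read 11.31, 9.0 and 11.27, then 6.87, and 13.29, 10.84 and 13.25, then 7.43, so all 3 gave the same order. Of its neighbours in the RefSeq gene order, Usp9x, a deubiquitinase, read 9.12, 9.77 and 9.62, then 10.03, not lower in the sorted tumour. On the other side Nyx was under the filter level in all 4 lymphomas, and Cask, a scaffold kinase next after it, lay below the range at 7.48, 6.89 and 8.03, then 5.28. Ddx3x and the following genes were chosen after their values were seen.

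Other genes of this kind read as follows. Armcx3, a mitochondrial protein, read 10.96, 8.96 and 10.73, then 6.25, against 11.67 in DP thymocytes (limma adjusted p = 0.0467). Ctnna1, the cadherin linker alpha-catenin, read 11.71, 10.76 and 11.36, then 7.67, against 10.78 (0.027). Gabarapl1, an autophagy protein, read 10.74, 9.04 and 9.55, then 6.41, against 9.85 (0.0425). These 3 calls were lost without lymphoma 3, and the first 2 also without lymphoma 1. Abca1, a cholesterol exporter, read 12.12, 11.02 and 12.03, then 5.41, against 11.90 in DP thymocytes and 5.66 in the cell line, and lay 5.62 below the range. Its adjusted p was 0.291, and its other probe sets were near the floor in all lymphomas. Hipk3, a kinase, read 10.55, 9.02 and 9.90, then 5.06, against 11.60 in DP thymocytes. In these genes the sorted tumour lay apart from DP thymocytes as well as from the other lymphomas.

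The genes at least 2-fold above the unsorted range numbered fewer than those at least 2-fold below. The 205 genes had median levels of 8.84, 8.99 and 8.33 in the unsorted tumours and 10.57 in the sorted one. Of these, 102 (49.8%) lay within 1 unit of the DP mean in the sorted sample and 98 (47.8%) at least 1 unit above it. Over all genes tested these shares were 87.6% and 7.24%. Lymphoma 2 was the highest unsorted tumour for 125 of the 205 (61%), a share not counted over all genes. The 8 genes that rose were Morrbid, Mturn, Sfxn3, Acvr2b, Akap5, Scn4b, Tgif1 and Mmp11. Morrbid, a long noncoding RNA that controls survival of myeloid and lymphoid cells, read 7.96, 8.24 and 7.62, then 10.61, a rise of 6.37-fold (SE 0.35 on the log2 scale, limma adjusted p = 0.018). Mturn read 7.22, 7.41 and 7.12, then 9.68, a rise of 5.37-fold (SE 0.23, adjusted p = 0.00925), toward a DP mean of 10.35. Sfxn3, a mitochondrial carrier, read 8.88, 8.88 and 8.67, then 11.18. Akap5, a kinase anchor, read 6.56, 6.96 and 7.18, then 9.07, and Acvr2b, an activin receptor, 5.63, 6.54 and 5.81, then 8.24, although a different Acvr2b probe set read 6.66, 6.85 and 6.76, then 6.78. Tgif1, a repressor in TGF-beta signalling, read 8.16, 8.51 and 8.09, then 10.17, Scn4b, a sodium channel subunit, 8.47, 8.72 and 8.34, then 10.56, and Mmp11, a metalloproteinase, 5.94, 6.07 and 6.02, then 7.58. The calls of Morrbid, Mturn and Akap5 held without each unsorted tumour, and the other 5 were lost without lymphoma 3 (adjusted p = 0.0552 to 0.117). All of these 5 but Mmp11 were also lost without lymphoma 1.

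The genes farthest above the range did not all pass the test. Mmp13, a collagenase, read 4.70, 5.24 and 4.56, then 9.53, with DP thymocytes at 4.88 (limma adjusted p = 0.362, and 0.0013 in the 8-array fit). Klf2, a factor that keeps T cells quiescent and able to leave tissue, read 10.34, 8.67 and 7.83, then 13.28, against 7.5 in DP thymocytes. Tnfrsf14, the receptor HVEM, read 6.76, 6.72 and 6.6, then 9.65. Irf4, a factor induced by T cell receptor signals, read 8.02, 9.02 and 8.19, then 11.33, but its weaker probe set read 5.15, 5.22 and 5.36, then 5.68. Smad7, an inhibitor of TGF-beta signalling, read 8.07, 7.84 and 7.35, then 10.32, and Tspan2, a tetraspanin, 7.58, 9.48 and 8.87, then 11.68. Ccr7, the receptor for homing to lymph nodes, read 10.28, 9.13 and 8.83, then 11.89. These genes were named for their distance from the unsorted tumours, or as list members above them, so that distance is a description.

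**Figure D5:**
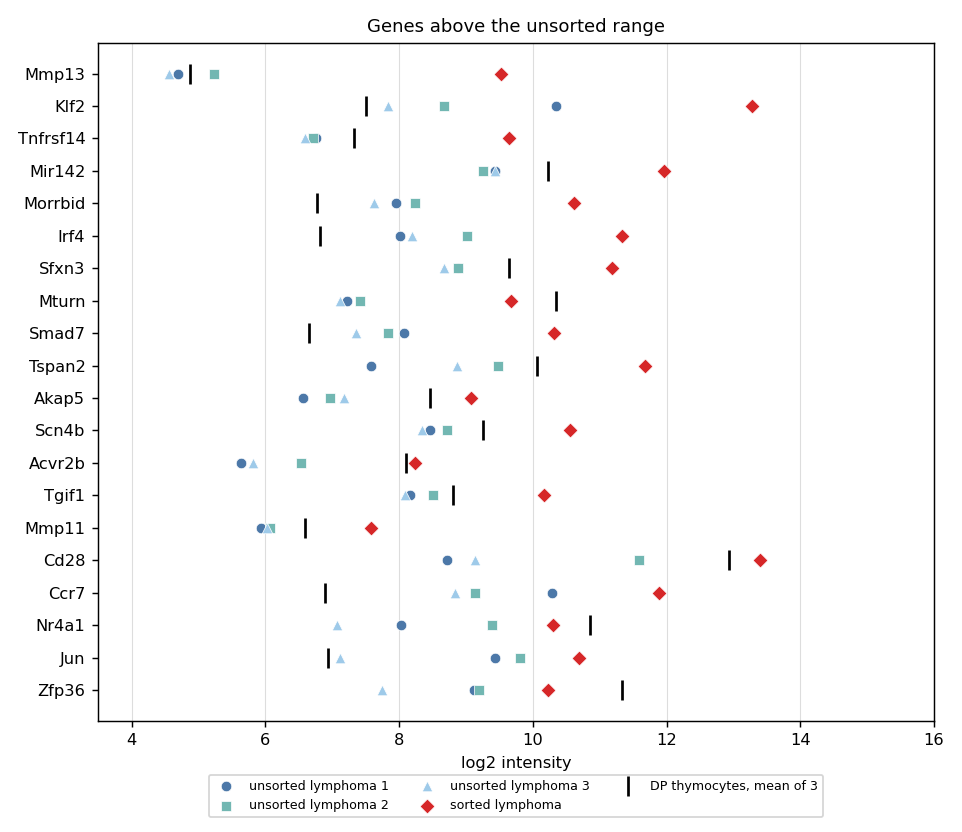
Log2 intensity (x axis) of genes above the unsorted range (rows) in the 3 unsorted lymphomas, the sorted lymphoma and DP thymocytes (mean of 3 arrays). In every row the sorted lymphoma lies to the right of all unsorted tumours; DP thymocytes lie near it for Mturn, Acvr2b and Cd28 and far to its left for Mmp13, Klf2 and Morrbid.

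The Mir142 locus was also among the genes farthest above the range. It gives rise to miR-142a, a microRNA made in blood cells and hardly in stroma, and its probe set reads the locus transcript and not the mature arms. It read 9.44, 9.26 and 9.44 in the unsorted tumours and 11.96 in the sorted one, against 10.23 in DP thymocytes and 9.69 in the cell line. The sorted value lay 2.52 above the highest unsorted tumour (limma adjusted p = 0.134, and 0.00179 in the 8-array fit). The mature arms from RefSeq (GRCm38.p6, plus strand, chr11:87756867-87756887 and chr11:87756903-87756925) are shown to identify what the locus encodes, with the seed, bases 2 to 8, in capitals.
mmu-miR-142a-5p: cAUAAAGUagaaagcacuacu
mmu-miR-142a-3p: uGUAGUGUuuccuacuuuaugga
The seeds of the arms differ, so the arms pair with different target sites.

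The 6 lists of cell state genes held 0 calls by limma over 12 arrays. In the fit of the 8 T cell side arrays 1 of 11 heat shock and 1 of 11 hypoxia genes fell, against 307 of all 12797 genes. At an unadjusted p under 0.05 there were 2 immediate early, 1 heat shock, 3 type I interferon and 2 hypoxia genes, and 0 replication genes or interferon gamma GTPases, against 9.99% of all genes. Immediate early genes, which cell handling can induce, lay above the range in 7 of 16 cases and below in 3, with a median of 0.78; the share above is near the 35.8% of all genes (45.2% with arrays centred). Jun read 9.43, 9.81 and 7.11, then 10.69, and Nr4a1, induced by T cell receptor signals, 8.03, 9.39 and 7.07, then 10.30. Zfp36, which destabilises cytokine mRNAs, was the only member at least 2-fold above, at 9.12, 9.20 and 7.74, then 10.22. Fos stayed inside the range at 10.46, 9.18 and 7.95, then 10.36, and so did Egr1 at 9.95, 9.10 and 7.58, then 8.58. Dusp1, a stress phosphatase, lay below at 11.72, 9.37 and 9.27, then 8.6. The part of handling time was not tested. Heat shock genes lay inside the range in 7 of 11 cases, with a median of 0.00. Hspa1b read 7.95, 9.40 and 6.43, then 9.33, and Hspb1, a small heat shock protein that stroma also makes, 7.59, 7.33 and 7.22, then 6.03.

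Proliferation genes were close to the unsorted level. Mki67 read 12.98, 12.88 and 13.38, then 12.91, and Top2a 12.41, 12.41 and 12.92, then 12.41. Of 17 genes tested, 9 lay inside the range, 7 below and 1 above, none at least 2-fold, with a median of -0.17. Mcm2, a subunit of the replicative helicase, was the farthest below, at 11.83, 11.97 and 11.61, then 11.14. Type I interferon genes lay below the range in 7 of 13 cases, with a median of -1.07, and were highest in lymphoma 3 for 9. Mx1, an antiviral GTPase, read 7.57, 6.53 and 10.34, then 5.67, whereas Irf7 stayed inside the range at 10.87, 9.10 and 11.13, then 9.72. GTPases induced by interferon gamma lay above the range in 4 of 8 cases and below it in 1 (3 and 3 under quantile normalization), with a median of 0.14. Igtp read 13.47, 13.43 and 13.13, then 13.93, and Gbp2 13.35, 13.11 and 12.06, then 13.72. Of the hypoxia and glycolysis genes, 7 of 11 lay below the range (3 with arrays centred on their medians). Adm, which encodes the vessel-active peptide adrenomedullin, was the only one at least 2-fold below, at 8.78, 8.34 and 8.37, then 6.29. Ldha, lactate dehydrogenase, read 13.46, 13.36 and 13.19, then 13.07.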

How the data were processed

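RNA from 12 mouse samples was hybridised to Affymetrix Mouse430 2.0 arrays, 1 array a sample. The authors deposited intensities per probe set, on a linear scale; RMA is named per the submitters' processing notes, with its version not given in the sources used here. Arrays of the T cell side and the stem cell side have different medians, and scanner files were not used here. Arrays hold no read depth, and their number limits the precision.

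Log2 of the deposited intensity was taken. Of 45101 probe sets, 64 were controls, 34945 had 1 gene symbol in the platform annotation, 932 several and 9160 none; 34741 matched RefSeq and 0 symbols changed. Where a gene had several, its brightest probe set on average over the 12 arrays stood for it. Differences were tested with lmFit and eBayes of limma 3.58.1, run in R 4.3.3 (two-sided, a mean per labelled group, 6 residual degrees of freedom, tested on simulated data), with Benjamini-Hochberg adjustment and a threshold of 0.05. The lone sorted array gives no spread of its own. The labels call the arrays biological replicates but name no animals for the lymphomas, so p-values may measure only the spread between these samples.

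The members and the 30 gene lists were chosen with earlier results of these data known. Of the 399 listed genes, 366 were measured by a named probe set and 332 passed the filter. Named genes were the 10 largest changes each way among calls, the 10 genes farthest outside the range each way, defining markers, up to 4 members below and 2 above the range per list, and up to 3 inside it for lists of other cells; others are said to be chosen after their values were seen or are given beside a list. Alternatives changed the arrays fitted, the filter, the probe set rule, an offset, the scaling and the variance trend.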

Additional observations from a re-analysis of the deposited data

How the results depend on the processing

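No paired analysis was possible because the sorted array carries replicate number 4 and the unsorted arrays 1 to 3, so the groups share no number. The reported counts were 76 genes lower and 8 higher by limma, 647 at least 2-fold below and 205 at least 2-fold above the range. Fitting only the 8 arrays of the T cell side gave 307 lower and 130 higher. Fitting only the 4 lymphoma arrays gave 0 and 0, where 1281 genes had an unadjusted p below 0.05 and the lowest adjusted p was 0.102. Without a filter 46 were called lower, and with an offset of 32 before log2 48 were. Quantile normalization left 133 genes at least 2-fold above the range. Leaving out each unsorted tumour in turn gave 37 to 195 lower and 3 to 53 higher by limma, and 688 to 990 below and 226 to 515 above; the highest counts all came without lymphoma 2 (195, 53, 990 and 515), the lowest calls without lymphoma 3 (37 and 3). Without lymphoma 1, 63 and 6 were called and 374 lay above. Of the 84 calls, 29 were lost without lymphoma 1, 2 without lymphoma 2 and 48 without lymphoma 3; 34 were kept in all 3 fits and 0 changed direction. With lymphoma 2 as the only unsorted array, an alternative chosen after seeing the data, 25 were called lower and 0 higher by limma (663 at an unadjusted p under 0.05), and 809 lay at least 2-fold below and 494 above it. The cause of these moves was not tested. The remaining settings (a filter on the lymphoma arrays, another probe set rule, no _x_at and _s_at probe sets, arrays centred on their medians, a variance trend) kept all 4 counts within 1.5 times. Of 300 list medians under these alternatives, 37 moved by more than the SD of the unsorted tumours and 7 changed sign. Signal near the array floor limits how far a loss can be followed.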

Other observations

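The host sex is not in the labels used here, and genes linked to it, chosen after their values were seen, differed among the tumours. Xist, the noncoding RNA that silences an X chromosome in female cells, read 11.46, 7.08 and 6.92 in unsorted lymphomas 1 to 3, 6.42 in the sorted lymphoma and 7.10 in DP thymocytes. A different Xist probe set read 10.98, 4.99 and 4.89, then 4.73. Eif2s3y, a gene of the Y chromosome, read 12.49, 11.94 and 12.55, then 12.42, and Kdm5d, also Y-linked, 10.18, 10.10 and 10.09, then 10.21. Lymphoma 1 therefore stood apart in Xist and not in the Y-linked genes.

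Among the 647 genes at least 2-fold below the unsorted range, 22 were still at least 1 log2 unit above DP thymocytes in the sorted tumour. Fbp1, a gluconeogenic enzyme, read 13.19, 11.38 and 13.62, then 10.30, against 6.26 in DP thymocytes and 14.09 in the cell line. Ifitm3, an antiviral membrane protein, read 14.10, 11.65 and 13.41, then 8.94, against 6.39 and 14.03. Samhd1, a nucleotide hydrolase, read 13.06, 10.35 and 11.58, then 8.95, against 6.45 and 9.92. Id2, an inhibitor of E proteins, read 12.77, 11.15 and 11.79, then 9.70, against 8.14 and 11.93. In these 4 genes, chosen after their values were seen, lymphoma 2 was the lowest unsorted tumour, and the cell line was higher than the sorted tumour.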
